A study of Homo sapiens with 30 samples.

Results

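The comparison described here set every library of cells given the low dose, 20 µg/mL, of any of 5 herbal extracts against every vehicle library. Its members were chosen by the treatment label, with earlier results of these data known. They are 9 treated libraries and 3 vehicle libraries, 12 of the 30 libraries of the series. The question was which genes moved together in treated cells whatever the extract, and in which gene classes they lay.

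The cells were SW1783, an established human astrocytoma line, bought from a cell repository and grown in Leibovitz's medium with fetal bovine serum. The 9 treated libraries were 3 of Palmul-tang water extract, 3 of Sibjeondaebo-tang water extract, 1 of Samul-tang water extract, 1 of Poria Cocos ethanol extract and 1 of Atractylodis Rhizoma ethanol extract. The 3 vehicle libraries came from cells in 0.1% DMSO, and all 12 were collected after 24 h. Palmul-tang, Sibjeondaebo-tang and Samul-tang are multi-herb formulas of Korean medicine, and Poria Cocos and Atractylodis Rhizoma are single herbal materials. The sample labels give the vehicle as 0.1% DMSO while the series text gives 2% DMSO, and the final DMSO content of the treated wells is not given in the sources used here. The 3 vehicle libraries carry a sample code of their own that no treated library shares, so a difference between treatment and vehicle cannot be told apart here from a difference in how the vehicle set was handled. Nothing in the labels says that replicates came from separate cultures, so the spread between libraries on which each p-value rests may be technical. In the main edgeR fit that spread was taken within groups over all 30 libraries of the series, other doses included. A group with 1 library adds nothing to it. The permutation tests used only the 12 libraries compared. Total counts per library were 25.01 to 30.27 M at 20 µg/mL and 22.57 to 27.96 M for vehicle.

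Several gene systems recur below. Serum response factor (SRF), with its actin-regulated co-activators, drives genes of the contractile cytoskeleton, and in cultured cells their transcripts move with tension, spreading, density and serum. Immediate early genes encode short-lived transcription factors and feedback regulators that respond within the hour to growth factors and stress. NEAT1, MALAT1, MEG3 and MIAT are long noncoding RNAs that stay largely in the nucleus, where NEAT1 builds the paraspeckle.

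The shift was wide and small in size. Of 17839 genes tested, 5878 differed between the libraries at 20 µg/mL and vehicle, which is 33% of them, by edgeR's quasi-likelihood test at a Benjamini-Hochberg adjusted p of 0.05. Of these, 2672 (15%) were higher and 3206 (18%) were lower at 20 µg/mL. The median size of the log2 fold change among called genes was 0.205, and 107 called genes differed by at least 2-fold and 347 by at least 1.5-fold. In 4369 called genes (24.5%) no treated library overlapped any vehicle library, 1912 of them (10.7%) higher and 2457 (13.8%) lower; whatever their p, 4659 genes (26.1%) had no overlap. In bulk RNA, fewer cells of one kind and less RNA of a gene per cell cannot be told apart.

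The 9 treated libraries stood together and away from vehicle. Over 12874 genes with a mean count of at least 50, the chi-square per gene between a 20 µg/mL library and a vehicle library was 11.9 to 24.3 in 27 pairs, with a median of 15.7. Between 20 µg/mL libraries of different extracts it was 2.31 to 5.12 in 30 pairs (median 3.73). Between libraries of the same extract it was 2.42 to 4.55 in 6 pairs, and among vehicle libraries 2.38 to 3.6 in 3 pairs. Pairs of different extracts were therefore about as far apart as pairs of the same extract, and no 2 of these libraries agreed within sampling noise. Each formula alone gave a like number of calls against the same 3 vehicle libraries. Palmul-tang at 20 µg/mL had 4243 called genes (23.8%; 1868 higher, 2375 lower) and Sibjeondaebo-tang at 20 µg/mL had 4244 (23.8%; 1880 higher, 2364 lower). A test of difference among the 5 extracts at 20 µg/mL, which does not use vehicle, called 12 genes (0.0673%).

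The direction of the shift followed the base composition of the transcript. In the decile of genes with the lowest GC content, 26.79% to 38.45%, 34.2% were higher and 2.88% lower at 20 µg/mL, with a median log2 fold change of 0.11. In the decile with the highest GC content, 61.24% to 75.2%, 3.95% were higher and 36% lower, with a median of −0.14. Library by library, the median difference from the vehicle mean in the lowest decile was 0.085 to 0.145 at 20 µg/mL and −0.001 to 0.002 for vehicle. In the highest decile it was −0.174 to −0.086 at 20 µg/mL and −0.004 to 0.014 for vehicle. All 9 treated libraries thus differed from the vehicle mean along GC content. The vehicle values are differences from their own mean, so they show only that the 3 vehicle libraries were alike. Which of the groups carries a gradient cannot be read from these values. Length and intron number also divided the calls, with long and intron-rich genes more often higher. The longest decile of transcripts had 30.8% higher and 15.2% lower, and the shortest decile 3.84% higher and 9.15% lower. Genes with the most introns had 34.3% higher and 13.3% lower, against 6.1% and 12.3% for those with the fewest. In the most strongly expressed decile of genes, 18.8% were higher and 42.4% lower. Whether this gradient arose in the cells or in library preparation was not tested. Beside most lists below, values are therefore also given after a smooth trend of GC content and length, with an SD of 0.0774 in log2 units across genes, was taken out. Without that trend 5190 of 17839 genes were called, 1652 higher and 3538 lower, and 3960 of them were also called as counted. The median log2 fold change of all genes was then −0.02, against which the medians with the trend removed are to be read. Counts of list members are likewise to be read against these counts with the trend removed. As counted, they are to be read against 15% higher and 18% lower over all genes. Both yardsticks include weakly expressed genes, which were seldom called as counted: 1.79% higher and 2.52% lower in the least expressed decile. Of 10291 genes with a mean of at least 3 log2 CPM (defined below), 2138 were higher and 2884 lower as counted. Lists of abundant genes, such as those of ribosomal proteins, oxidative phosphorylation and mitosis, are to be read against these counts of strongly expressed genes.

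**Figure D1:**
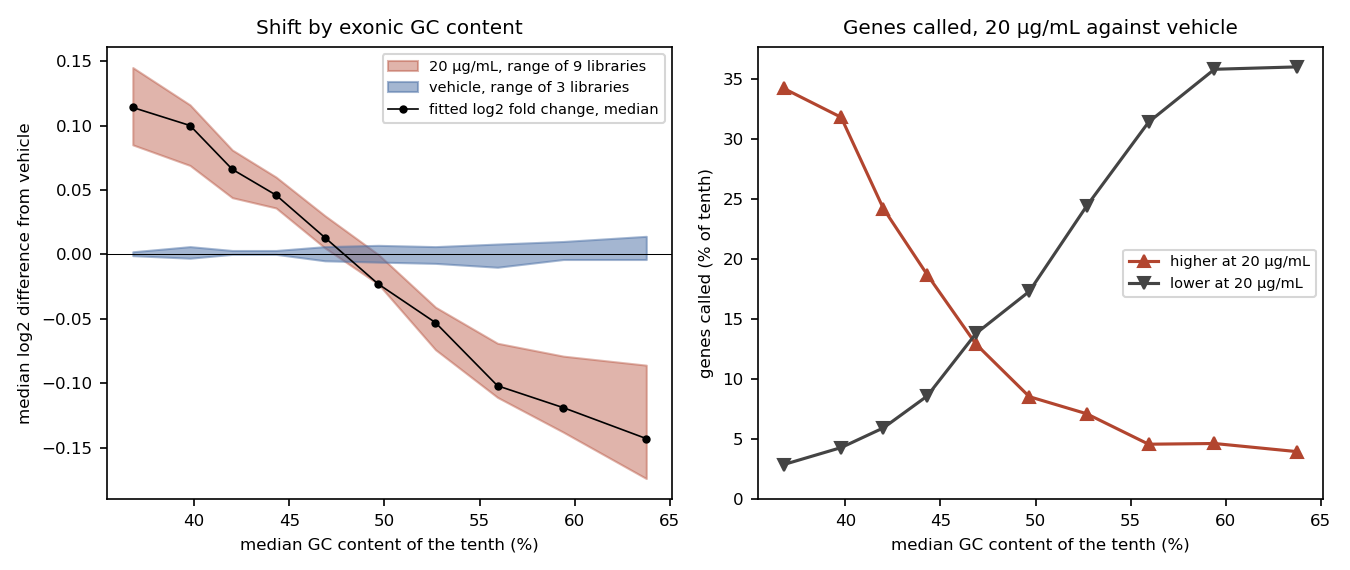
The left panel plots the median log2 difference from the vehicle mean for genes in each decile of GC content, with the range over libraries, and the right panel the percent of genes in each decile called higher or lower at 20 µg/mL. The treated medians fall from 0.11 in the lowest decile to −0.14 in the highest while vehicle stays near 0, and calls pass from 34.2% higher in the lowest decile to 36% lower in the highest.

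The largest rises and falls are ranked here among called genes that average at least 1 log2 CPM and whose groups did not overlap. NEAT1 (chr11:65422774-65445540, GRCh38), the paraspeckle scaffold, was among the largest rises. In CPM, counts scaled to the TMM-adjusted library size, it had 490 CPM in the lowest, 569 in the median and 731 in the highest library at 20 µg/mL, against 284, 301 and 307 CPM in vehicle. The groups did not overlap, and the Samul-tang library was the highest. NEAT1 averaged 585 ± 67.3 CPM at 20 µg/mL (SD, n = 9) and 298 ± 12.2 CPM in vehicle (SD, n = 3), a log2 fold change of 0.97 ± 0.0425 (SE; edgeR adjusted p = 7.96e-14), and 0.88 with the trend removed. MARK2 (chr11:63838928-63911019), a kinase that regulates microtubule binding and cell polarity, had 26.6, 32.7 and 35.9 CPM in the lowest, median and highest library at 20 µg/mL, against 17.4, 14.7 and 16.8 CPM in vehicle. Here too no library overlapped, and the log2 fold change was 0.96 ± 0.1419 (edgeR adjusted p = 8.48e-05). ZSCAN31, a zinc finger protein of the SCAN family, had 12.2, 14.9 and 17.2 CPM at 20 µg/mL, against 8.05, 8.31 and 7.74 CPM in vehicle. Its log2 fold change was 0.88 ± 0.0702 (edgeR adjusted p = 1.28e-11), again without overlap.

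The other genes among the 15 largest rises were of low expression, or shared sequence with a copy. AMT, an enzyme of mitochondrial glycine cleavage, was higher by 0.94, CFAP70, a protein of motile cilia, by 0.91, ZNF540 by 0.83 and SERPINB3, a protease inhibitor, by 0.79 on the log2 scale. CPT1B, the muscle form of the enzyme that loads fatty acids for mitochondrial import, was higher by 0.83, but it shares 2722 bases on its own strand with the readthrough gene CHKB-CPT1B, and AMT shares 3624 bases with AC104452.1, so their reads could be split differently. The pseudogene LDHAP4 was higher by 1.00, at 2.18 to 2.99 CPM against 1.15 to 1.32 CPM. SMIM11, HERC2P3, HERC2P2, ANKRD36 and ANKRD36C share at least 20% of their sequence with other genes and are uncertain for that reason. The last of the 15, PCDHGB3, a cell adhesion gene, was higher by 0.84, shares 2181 bases on its own strand with each of the other genes of its cluster, and had a call that was lost without the second or the third vehicle library (edgeR adjusted p = 0.0649 and 0.152).

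**Figure D2:**
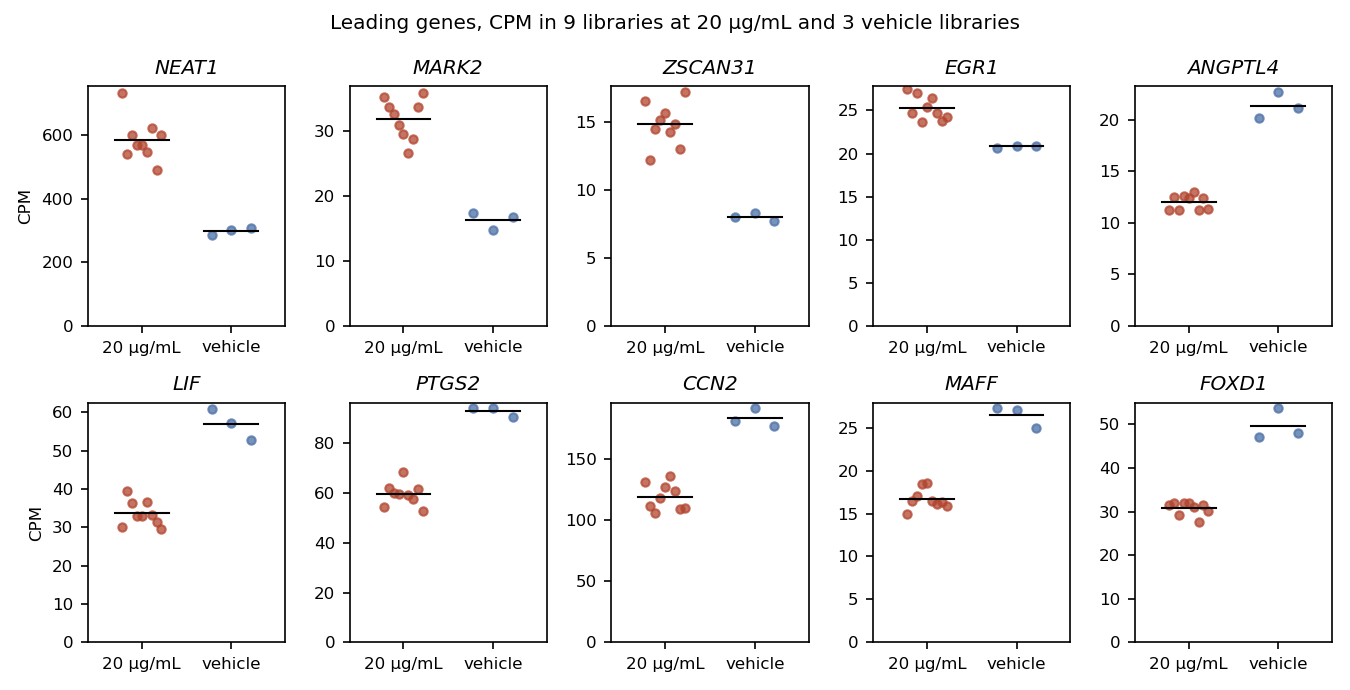
Expression in CPM of 10 genes in each of the 9 libraries at 20 µg/mL and the 3 vehicle libraries, with a bar at each group mean. NEAT1, MARK2, ZSCAN31 and EGR1 are higher at 20 µg/mL and ANGPTL4, LIF, PTGS2, CCN2, MAFF and FOXD1 lower, with no treated library inside the vehicle range; NEAT1 runs from 490 to 731 CPM at 20 µg/mL and from 284 to 307 CPM in vehicle.

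Among the largest falls were ANGPTL4, LIF, PTGS2 and FOXD1. ANGPTL4 (chr19:8363289-8374373), a secreted inhibitor of lipoprotein lipase, had 11.2, 12.4 and 13.0 CPM in the lowest, median and highest library at 20 µg/mL, against 20.2, 22.7 and 21.1 CPM in vehicle, a log2 fold change of −0.83 ± 0.0584 (edgeR adjusted p = 1.06e-12). LIF (chr22:30240447-30246851), a cytokine that signals through STAT3, had 29.5, 33.0 and 39.6 CPM at 20 µg/mL, against 61.0, 57.1 and 52.7 CPM in vehicle, a log2 fold change of −0.76 ± 0.0477 (edgeR adjusted p = 8.11e-13). PTGS2 (chr1:186671791-186680427), the inducible cyclooxygenase of prostaglandin synthesis, had 52.6, 59.5 and 68.3 CPM at 20 µg/mL, against 94.3, 94.1 and 90.6 CPM in vehicle, a log2 fold change of −0.65 ± 0.0412 (edgeR adjusted p = 8.11e-13). In all of these genes every treated library lay under every vehicle library. FOXD1 (chr5:73444827-73448527), a forkhead transcription factor, had 27.7, 31.5 and 32.0 CPM at 20 µg/mL, against 47.0, 53.7 and 48.0 CPM in vehicle, a log2 fold change of −0.68 (edgeR adjusted p = 1.8e-13). ZSWIM4 fell by 0.69 on the log2 scale, ZNF385A by 0.60 and the divergent transcript TRIM8-DT by 0.62, each without overlap. ZSWIM4 shares 2286 bases with AC020916.1 on the opposite strand, and whether the counting used strand is not given in the sources used here. Antisense partners also share exonic bases with ACTA2 (516 with ACTA2-AS1 and 380 with FAS), LIF (92 with LIF-AS1), CCN2 (195 with AL133346.1) and FOXD1 (424 with FOXD1-AS1). Other genes named below share bases too, among them PLAU, 916 with C10orf55 on the opposite strand. On their own strand ALDOA shares 1657 with AC093512.2 and SOD2 845 with another SOD2 entry. KRTAP2-3, MORF4L1P1, RPS2P46 and RPL14P1 share at least 20% of their sequence with other genes and are uncertain, and RPL32P18 is a ribosomal protein pseudogene at 2.03 to 2.91 CPM at 20 µg/mL.

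Of the 46 lists, that of the contractile cytoskeleton had the largest share of members called in one direction. The lists were drawn up with earlier results of these data known, so this rank is only a description. Of 20 tested contractile and SRF target genes, 19 fell at 20 µg/mL and none rose, with a median log2 fold change of −0.30, against 18% lower and a median of 0.00 over all genes tested. In 18 of the 20 no library overlapped. The median of the list was −0.359 to −0.234 in the 9 libraries at 20 µg/mL and −0.016 to 0.014 in vehicle, relative to the vehicle mean. Its members are GC-rich, with a median of 55.2% against 48.1% for all genes, but with the trend removed 19 of 20 still fell, with a median of −0.26. ACTA2 (chr10:88935074-88991339), smooth muscle actin, had 101, 107 and 110 CPM in the lowest, median and highest library at 20 µg/mL, against 148, 139 and 138 CPM in vehicle, a log2 fold change of −0.41 ± 0.0304 (edgeR adjusted p = 2.58e-12). MYL9, a regulatory light chain of myosin, had 205, 214 and 229 CPM at 20 µg/mL, against 290, 278 and 297 CPM in vehicle, a log2 fold change of −0.41 ± 0.0304 (edgeR adjusted p = 2.62e-12). ACTN1, the actin crosslinker of stress fibres, had 799, 842 and 877 CPM at 20 µg/mL, against 1060, 1040 and 1050 CPM in vehicle, a log2 fold change of −0.32 ± 0.0235 (edgeR adjusted p = 2.58e-12). None of these genes had a treated library within the vehicle range. TAGLN, a smooth muscle actin-binding protein, fell by 0.42, ZYX, a focal adhesion protein, by 0.38, SMTN, which encodes smoothelin, by 0.34, and ACTB, cytoplasmic actin with many processed pseudogenes, by 0.34 on the log2 scale. CALD1, which encodes caldesmon, fell least among the called members that are abundant, at −0.10. The one member not called was LMOD1, an actin nucleator of smooth muscle, at −0.21 (edgeR adjusted p = 0.393). The genes of this list other than ACTA2, MYL9 and ACTN1 were named after their values were seen.

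Promoter sequences are shown here for 3 genes that fell, to set out the elements by which these gene groups are known. The windows are the 250 bases before the transcription start from RefSeq (GRCh38.p14), 5′ to 3′ on the gene's strand, with the element in capitals. In SMTN, whose window was chosen after values were seen, the capitals mark a CArG box, the SRF element, starting 44 bases before the start (chr22:31084746-31084995, + strand, 1 of 4 annotated starts). In CCN2 they mark GGAATG, the core of the TEAD motif, at 169, 104 and 95 bases before the start (chr6:131951373-131951622, − strand). In MAFF they mark the full cyclic AMP response element TGACGTCA, 54 bases before the start (chr22:38201744-38201993, + strand, 1 of 2 annotated starts).
SMTN: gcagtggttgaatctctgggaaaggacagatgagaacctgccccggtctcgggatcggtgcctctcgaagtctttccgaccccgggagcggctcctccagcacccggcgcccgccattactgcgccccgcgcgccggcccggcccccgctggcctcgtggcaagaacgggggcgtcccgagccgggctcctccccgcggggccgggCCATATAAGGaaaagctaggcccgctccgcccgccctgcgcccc
CCN2: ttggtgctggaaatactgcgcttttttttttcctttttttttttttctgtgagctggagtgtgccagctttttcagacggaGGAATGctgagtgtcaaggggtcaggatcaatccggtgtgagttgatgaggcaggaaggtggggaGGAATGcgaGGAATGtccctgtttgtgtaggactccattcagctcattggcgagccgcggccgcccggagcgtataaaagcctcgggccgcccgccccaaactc
MAFF: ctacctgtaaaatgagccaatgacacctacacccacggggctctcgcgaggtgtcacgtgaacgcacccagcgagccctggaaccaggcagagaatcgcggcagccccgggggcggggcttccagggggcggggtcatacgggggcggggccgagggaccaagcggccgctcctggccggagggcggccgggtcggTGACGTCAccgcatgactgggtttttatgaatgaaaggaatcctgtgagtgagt
Over windows of 300 bases that also hold the first 50 transcribed bases, read on both strands, a CArG box was found in 8 of the 17 contractile genes with a window (47.1%), in 3 of 28 immediate early genes (10.7%) and in 438 of 27305 genes of the whole table (1.6%). GGAATG was found in 8 of 14 YAP and TEAD targets (57.1%), in 8 of 17 contractile genes (47.1%) and in 16.7% of all genes. TGACGTCA was found in 4 of 28 immediate early genes (14.3%) and in 2.25% of all genes. A gene was counted if any of its windows held the element, and windows per gene differed. The 17 contractile genes had 35 windows, the 28 immediate early genes 37 and the 14 YAP and TEAD targets 17. All 27305 genes had 35116, so the contractile shares are raised by more windows per gene. In the windows shown no element overlaps one of another kind, and a match is a description of the sequence, not evidence of binding in these cells.

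CCN2 (chr6:131948176-131951373), a matricellular protein and a classic target of YAP and TEAD as well as of TGF-beta, was among the 15 largest falls. It had 106, 118 and 136 CPM in the lowest, median and highest library at 20 µg/mL, against 181, 192 and 177 CPM in vehicle, a log2 fold change of −0.62 ± 0.0769 (edgeR adjusted p = 1.51e-05). The wider list of YAP and TEAD targets moved less: 8 of 20 fell and 2 rose, with a median of −0.05. Beside CCN2, F3, the tissue factor of blood clotting, fell by 0.24, AXL, a receptor tyrosine kinase, by 0.19 and ASAP1, a regulator of ARF GTPases at focal adhesions, by 0.19 on the log2 scale. With the trend removed 10 fell and 2 rose, with a median of −0.08.

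Immediate early genes fell as a list, though EGR1, FOS and JUN, its best known members, did not. Of 36 tested, 19 fell and 2 rose, with a median of −0.23, and 16 of those that fell had no overlap. The list median was −0.254 to −0.17 in libraries at 20 µg/mL and −0.019 to 0.022 in vehicle. With the trend removed, 18 fell and 3 rose, with a median of −0.18. MAFF (chr22:38200767-38216511), a small Maf partner of stress-response transcription factors, had 14.9, 16.4 and 18.6 CPM in the lowest, median and highest library at 20 µg/mL, against 27.3, 27.0 and 25.0 CPM in vehicle, a log2 fold change of −0.67 ± 0.0529 (edgeR adjusted p = 1.25e-11). FOSL1, the AP-1 subunit Fra-1, had 178, 200 and 204 CPM at 20 µg/mL, against 285, 266 and 279 CPM in vehicle, a log2 fold change of −0.51 ± 0.0328 (edgeR adjusted p = 1.83e-13). FOSB, another AP-1 subunit, had 1.58, 1.76 and 1.87 CPM at 20 µg/mL, against 3.17, 3.2 and 2.34 CPM in vehicle, a log2 fold change of −0.72 ± 0.1293 (edgeR adjusted p = 3.93e-05). These genes again had no treated library within the vehicle range. ZFP36L1, which speeds the decay of AU-rich mRNAs, fell by 0.35. SRF itself, a member of this list, fell by 0.29 (edgeR adjusted p = 5.1e-07), and ARC, at under 1 CPM at 20 µg/mL the lowest called member, by 1.15; both were named after their values were seen. EGR1 (chr5:138465490-138469315), a zinc finger transcription factor induced by growth factors, went the other way, with 23.7, 24.7 and 27.5 CPM at 20 µg/mL, against 20.7, 20.9 and 20.9 CPM in vehicle, a log2 fold change of 0.28 ± 0.0591 (edgeR adjusted p = 0.000335). The other riser was the phosphatase DUSP1, at 0.22, named after its values were seen. FOS did not pass the test at 0.38 ± 0.1575 (edgeR adjusted p = 0.0641), although it did with the trend removed (0.0487) and without the first vehicle library (0.0257). JUN stood at −0.04 (edgeR adjusted p = 0.335).

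**Figure D3:**
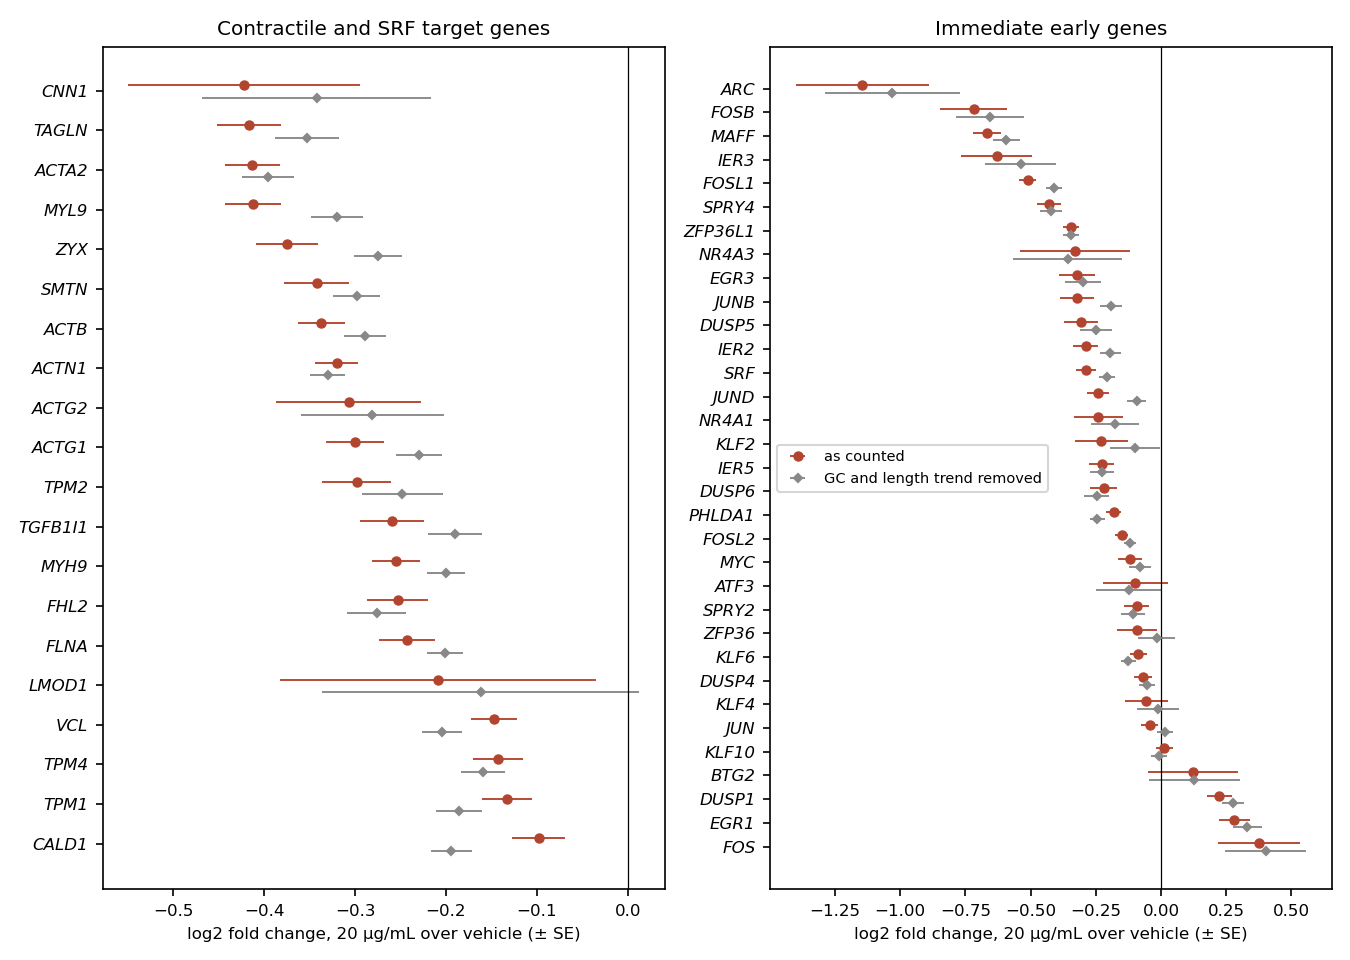
Log2 fold change of 20 µg/mL over vehicle, with its SE, for contractile and SRF target genes and for immediate early genes with a mean of at least 1 CPM in either group, as counted and with the trend of GC content and length removed. The contractile genes lie below 0 on both scales, with medians of −0.30 and −0.26 over the 20 tested, while the immediate early genes run on both sides, from ARC at −1.15 to FOS at 0.38 as counted.

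Matrix and protease genes moved in both directions. Of 15 TGF-beta targets 9 fell and none rose, with a median of −0.11 (11 fell with the trend removed). PLAU, the urokinase that activates plasminogen, had 95.1, 102 and 109 CPM in the lowest, median and highest library at 20 µg/mL, against 137, 133 and 131 CPM in vehicle, a log2 fold change of −0.39 ± 0.0312 (edgeR adjusted p = 1.62e-11). It lay under the vehicle range in all 9 libraries, and PLAUR, the urokinase receptor, fell by 0.35. Over the 13 genes of plasminogen activators and serpins, 7 fell and 1 rose, with a median of −0.19 (−0.15 with the trend removed). TGFB1, the ligand itself, and PMEPA1, a feedback inhibitor of its signal, each fell by 0.30 on the log2 scale. Collagens and matrix glycoproteins were mixed: 18 of 52 rose and 10 fell, with a median of 0.05 (17 and 11, and 0.04, with the trend removed). COL12A1, a collagen that sits on fibril surfaces, rose by 0.25 and COL4A5, a basement membrane collagen, by 0.25, while THBS1, an activator of latent TGF-beta, fell by 0.31 and COL1A1, the main fibrillar collagen, by 0.24. Among 20 matrix metalloproteinases and TIMPs, 6 fell and 1 rose (median −0.04, and −0.10 with the trend removed). MMP14, a membrane-anchored collagenase, fell by 0.21 and TIMP1, an inhibitor, by 0.29, and MMP16 was the riser, at 0.29. Of 15 BMP and ID targets 3 fell, SMAD7 by 0.27 among them, which is 20% against 18% of all genes, and 1 rose (median −0.13, and −0.07 with the trend removed). The list median overlapped between 20 µg/mL (−0.265 to 0.046) and vehicle. Of 15 keratins and epithelial junction genes 7 fell, KRT18 by 0.23 among them, and 1 rose (median −0.09, and −0.03 with the trend removed).

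More ribosomal protein genes fell than rose. Of 77 cytosolic ribosomal protein genes 43 fell and 6 rose, with a median of −0.12, and the list median was −0.161 to −0.054 in libraries at 20 µg/mL and −0.049 to 0.035 in vehicle, so the lowest vehicle library came close to the highest treated one. RPL14, a protein of the large subunit, had 317, 339 and 342 CPM in the lowest, median and highest library at 20 µg/mL, against 438, 436 and 429 CPM in vehicle, a log2 fold change of −0.39 ± 0.0253 (edgeR adjusted p = 3.08e-13). RPL13A, also of the large subunit, had 697, 771 and 789 CPM at 20 µg/mL, against 1010, 955 and 1040 CPM in vehicle, a log2 fold change of −0.40 ± 0.0324 (edgeR adjusted p = 6.45e-11), and RPS14 fell by 0.35. These genes did not overlap between groups. Ribosomal protein genes have many processed pseudogenes, and by shared sequence 3.57% of RPL14 and 6.67% of RPL13A could not be told from one. Of 78 mitochondrial ribosomal protein genes 29 fell and 9 rose (median −0.08), MRPS15 by 0.28 among those that fell. Of 78 nuclear genes of oxidative phosphorylation 29 fell and 11 rose (median −0.03), but the list median was −0.076 to 0.036 in libraries at 20 µg/mL and −0.031 to 0.028 in vehicle, so the groups overlapped. COX8A, a subunit of cytochrome c oxidase, fell by 0.45, and NDUFA11 and NDUFB9 of complex I by 0.36 and 0.32. With the trend removed the medians of these lists were −0.12, −0.10 and −0.05, so all of them stayed below the all-gene median of −0.02.

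Transcripts of the mitochondrial genome varied more between libraries. Of 13 mRNAs 4 fell and none rose, with a median of −0.16, and in none of the 13 were the groups without overlap. With the trend removed 10 of the 13 fell, with a median of −0.22. MT-ND3, a complex I subunit, had 1130, 1270 and 1420 CPM in the lowest, median and highest library at 20 µg/mL, against 1740, 1410 and 1800 CPM in vehicle. Its log2 fold change was −0.37 ± 0.0922 (edgeR adjusted p = 0.00606), a call lost without the third vehicle library (0.0553). Replication histone genes, whose mRNAs mostly lack poly(A) tails, were counted at low levels: 33 of 70 were tested, 5 fell and none rose (median −0.18). These 5 are 15.2% of those tested, under the 18% of all genes, and the highest list median at 20 µg/mL, −0.011, was inside the vehicle range of −0.079 to 0.06. H1-2 had 5.09 to 6.56 CPM at 20 µg/mL and 6.12 to 8.54 CPM in vehicle, so the groups overlapped, at a log2 fold change of −0.42 (edgeR adjusted p = 0.000233).

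Nuclear RNAs were higher. Of 7 nuclear retained noncoding RNAs 5 rose and none fell, with a median of 0.32, and the list median was 0.252 to 0.389 in libraries at 20 µg/mL and −0.016 to 0.043 in vehicle. MALAT1, a nuclear speckle RNA, had 1050, 1120 and 1250 CPM in the lowest, median and highest library at 20 µg/mL, against 885, 892 and 929 CPM in vehicle, a log2 fold change of 0.32 ± 0.0691 (edgeR adjusted p = 0.00217). MEG3, an imprinted noncoding RNA, had 713, 758 and 874 CPM at 20 µg/mL, against 601, 573 and 619 CPM in vehicle, a log2 fold change of 0.38 ± 0.0364 (edgeR adjusted p = 3.36e-09). MIAT had 6.3, 6.83 and 8.05 CPM at 20 µg/mL, against 4.47, 4.47 and 4.4 CPM in vehicle, a log2 fold change of 0.65 ± 0.0847 (edgeR adjusted p = 2.5e-07). None of these RNAs overlapped between groups. NEAT1 was the fourth of the risers, and the last, the imprinting RNA KCNQ1OT1, stood at 0.26 as counted and 0.13 with the trend removed, where it no longer passed (edgeR adjusted p = 0.0859). The members not called were TUG1, at 0.00, and PVT1, at −0.25 (edgeR adjusted p = 0.0712). KCNQ1OT1, TUG1 and PVT1 were named after their values were seen. With the trend removed 4 of the 7 rose and 1 fell, with a median of 0.21.

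By their median, zinc finger genes lay a little above all genes tested, with and without the trend. Of 471 tested C2H2 zinc finger genes named ZNF, 101 rose and 63 fell (21.4% and 13.4%, against 15% and 18% of all genes). Their median was 0.07, and the list median was 0.044 to 0.08 in libraries at 20 µg/mL and 0.001 to 0.005 in vehicle. This list has a low GC content, with a median of 43.2%, and with the trend removed 42 rose and 78 fell, with a median of 0.01. Over all 17839 genes 1652 rose and 3538 fell under that setting, so the share that rose was about that of all genes. There the list median was −0.007 to 0.024 in the libraries at 20 µg/mL, where that of all genes was −0.031 to −0.016. ZNF638, a nuclear RNA-binding protein, rose by 0.31, while ZNF503 and ZNF703, a related pair of transcriptional repressors, fell by 0.42 and 0.38. Of 25 SR splicing factors and CLK kinases 10 rose and 5 fell with a median of 0.05, which turned to −0.02 with the trend removed, the same as the median of all genes there. LUC7L3, PNISR and SRSF11 rose by 0.26, 0.27 and 0.22, and were still called with the trend removed. Of 30 small nucleolar RNA host genes 5 rose and 4 fell (16.7% and 13.3%, near the 15% and 18% of all genes). SNHG12 had 19.4, 20.3 and 23.7 CPM in the lowest, median and highest library at 20 µg/mL, against 14.1, 15.0 and 14.2 CPM in vehicle, a log2 fold change of 0.53 ± 0.0648 (edgeR adjusted p = 7.16e-08), whereas SNHG3 fell by 0.30. By biotype, 149 of 2532 long noncoding RNA genes rose and 131 fell (5.88% and 5.17%, under the 15% and 18% of all genes). Their median of 0.02 turned to −0.01 with the trend removed, where that of all genes was −0.02. It turned to −0.02 among genes of at least 3 log2 CPM, where that of all genes was −0.01. Only 178 of the 2532 reached that level, so most were weakly expressed. Of these 178, 33 rose and 39 fell, against 2138 and 2884 of the 10291 genes of any kind at that level. Of 13911 protein-coding genes 2420 rose and 2989 fell (median 0.00).

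**Figure D4:**
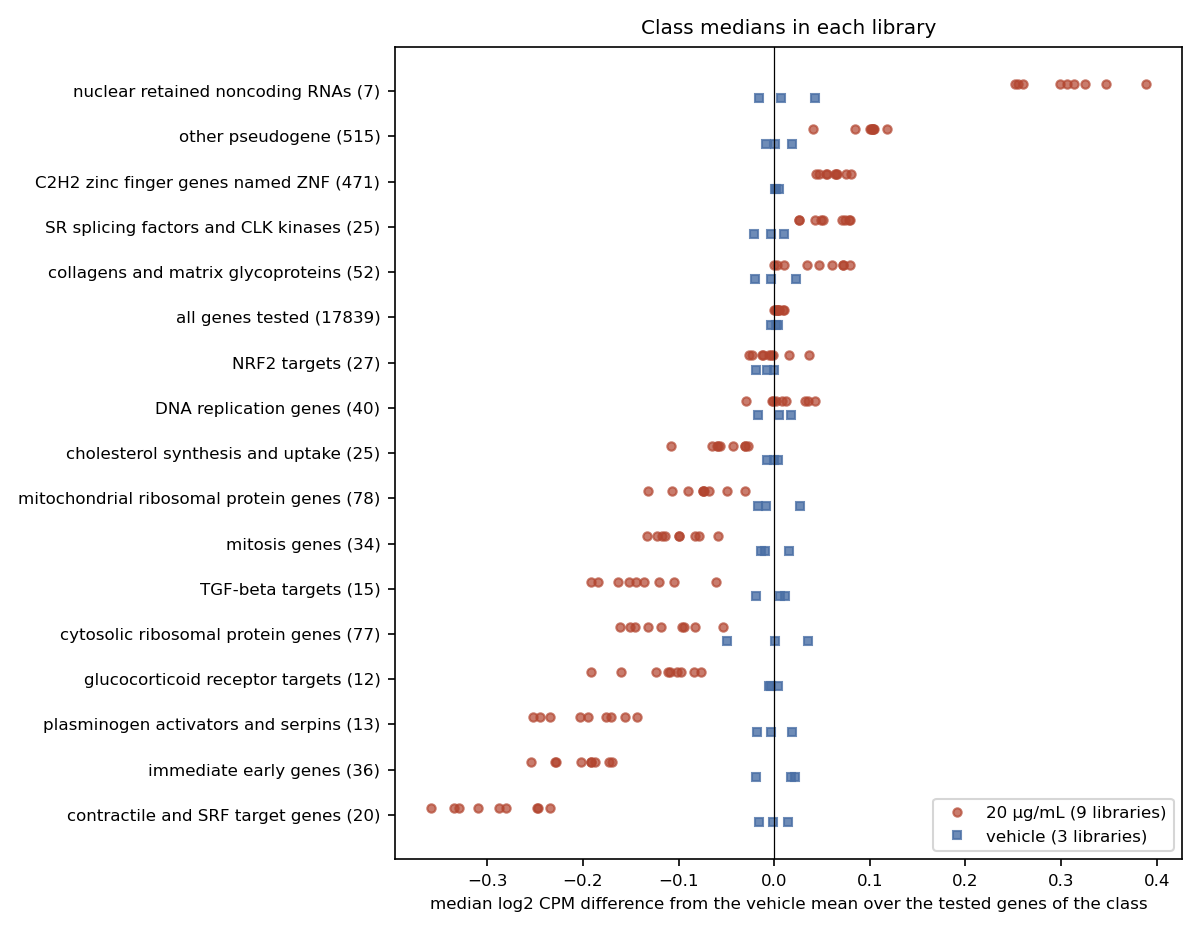
Median log2 difference from the vehicle mean over the tested genes of 17 classes in each library, circles for the 9 libraries at 20 µg/mL and squares for the 3 vehicle libraries. Contractile genes run from −0.359 to −0.234 at 20 µg/mL and nuclear retained RNAs from 0.252 to 0.389, while the vehicle squares of these classes lie between −0.016 and 0.043.

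Shares of whole libraries moved with these classes. Genes that do not code for protein took 1.592% ± 0.0243 of counts at 20 µg/mL (SD, n = 9) and 1.476% ± 0.00344 in vehicle (SD, n = 3), with an adjusted p of 0.0106 by an exact two-sided permutation test. MALAT1 with NEAT1 took 0.1718% at 20 µg/mL and 0.1156% in vehicle, and the 100 most counted genes took 23.24% at 20 µg/mL and 24.17% in vehicle, both with an adjusted p of 0.0106 by the exact permutation test. Genes with at least 10 counts numbered 16030 on average at 20 µg/mL and 15710 in vehicle (exact permutation test, adjusted p = 0.0239), in libraries that were also deeper. This difference of 321 genes became 149 when libraries were thinned to equal totals, and was still called (exact permutation test, adjusted p = 0.00795). It was not called when any one vehicle library was left out (exact permutation test, adjusted p = 0.0509 to 0.0636). Fewer regroupings exist there, so the smallest p allowed is larger. Cytosolic ribosomal protein genes took 3.734% at 20 µg/mL and 3.881% in vehicle and replication histone genes 0.005446% and 0.005751%, both with an adjusted p of 0.0583 by the exact permutation test. The mitochondrial share was 7.117% at 20 µg/mL and 7.373% in vehicle (exact permutation test, adjusted p = 0.241). The smallest p these 220 regroupings allow is 0.00455, and p-values were adjusted over 7 measures.

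Mitosis genes were mostly lower. Of 34 mitosis genes 20 fell and 6 rose, with a median of −0.11. These genes have a low GC content, with a median of 42.9%, and with the trend removed 25 fell and none rose, with a median of −0.15. PLK1, the kinase that drives mitotic entry and spindle assembly, had 126, 136 and 141 CPM in the lowest, median and highest library at 20 µg/mL, against 185, 162 and 179 CPM in vehicle, a log2 fold change of −0.38 ± 0.0314 (edgeR adjusted p = 3.43e-11). KIF20A, a motor of cytokinesis, fell by 0.22, AURKB, a kinase of chromosome alignment, by 0.32, and MKI67, the proliferation antigen, by 0.20. Of 40 DNA replication genes 7 rose and 7 fell, 17.5% each way and near the 15% and 18% of all genes. TK1, which makes thymidine nucleotides, fell by 0.27 and RFC4, a subunit of the clamp loader, rose by 0.17. Of 24 p53 targets 8 fell and 6 rose. The cell cycle inhibitor CDKN1A fell by 0.29 and the kinase PLK3 by 0.51.

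Metabolic lists held genes that fell and genes that rose. Of 34 genes of hypoxia and glycolysis 14 fell and 6 rose (median −0.03, and −0.05 with the trend removed). GAPDH, a glycolytic enzyme often used for normalization, had 3530, 3720 and 3820 CPM in the lowest, median and highest library at 20 µg/mL, against 4750, 4530 and 4690 CPM in vehicle, a log2 fold change of −0.33 ± 0.0283 (edgeR adjusted p = 7.21e-11). ALDOA and GPI, also glycolytic enzymes, fell by 0.28 and 0.27. Of 25 genes of cholesterol synthesis and uptake 7 fell and 1 rose (median −0.02), which became 10 and 2 with the trend removed (median −0.08). INSIG1, which holds back SREBP processing, fell by 0.25. HMGCS1, an enzyme of the pathway, stood at −0.09 (edgeR adjusted p = 0.0569, and 1.77e-05 with the trend removed). Of 11 genes of fatty acid synthesis 4 rose, ACACA by 0.17, and 3 fell, ACLY by 0.14. Of 15 PPAR, LXR and lipid droplet genes 3 rose and 5 fell, PNPLA2, which starts lipid droplet lipolysis, by 0.27.

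Stress programmes did not move as single blocks. Of 20 ER chaperones and unfolded protein response genes 9 fell and 4 rose (median −0.05), which became 10 and 1 with the trend removed. HERPUD1, which acts in degradation from the ER, had 83.3, 89.4 and 99.2 CPM in the lowest, median and highest library at 20 µg/mL, against 120, 127 and 129 CPM in vehicle, a log2 fold change of −0.48 ± 0.0361 (edgeR adjusted p = 3.68e-12). DNAJB9, an ER co-chaperone, fell by 0.32, while HSPA5, the main ER chaperone, stood at 0.09 (edgeR adjusted p = 0.00717), a call lost without the first vehicle library (0.145). Of 24 ATF4 and amino acid response genes 9 fell and 2 rose (median −0.10, and −0.07 with the trend removed), among those that fell SLC7A5, an importer of large neutral amino acids, by 0.36 and SHMT2 by 0.22, and DDIT3, the CHOP transcription factor, fell by 0.32. Of 20 aminoacyl tRNA synthetases 10 fell and 6 rose, which became 11 and 1 with the trend removed, and FARSA fell by 0.35. Of 20 cytosolic heat shock genes 6 fell and 5 rose, HSPB1 by 0.37 and STIP1 by 0.23 among those that fell. Of 27 NRF2 targets 10 fell and 8 rose (median 0.00, which turned to −0.05 with the trend removed). Their best known members went opposite ways: NQO1, a quinone reductase, had 145, 149 and 156 CPM at 20 µg/mL, against 130, 130 and 127 CPM in vehicle, a log2 fold change of 0.22 ± 0.0259 (edgeR adjusted p = 5.49e-08). HMOX1, heme oxygenase, had 59.6, 64.9 and 68.9 CPM at 20 µg/mL, against 77.8, 80.3 and 77.5 CPM in vehicle, a log2 fold change of −0.29 ± 0.0387 (edgeR adjusted p = 3.5e-07). Of 7 aryl hydrocarbon receptor targets 3 rose, CYP1B1 by 0.18, and 1 fell, TIPARP by 0.19. CYP1A1, the receptor's most inducible target, was at 0.458 to 1.23 CPM at 20 µg/mL and 0.82 to 0.959 CPM in vehicle and was not called (edgeR adjusted p = 0.92).

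Signalling lists were mixed. Of 33 NF-kappa B and cytokine genes 10 fell and 7 rose (median −0.06). This pooled median covers both directions: the list median was 0.005 to 0.147 in the 6 formula libraries and −0.133, −0.223 and −0.227 in the Samul-tang, Poria Cocos and Atractylodis Rhizoma libraries, against −0.012 to 0.011 in vehicle. CCL2, a monocyte chemokine, had 22.3, 28.7 and 32.9 CPM in the lowest, median and highest library at 20 µg/mL, against 40.8, 39.0 and 42.4 CPM in vehicle, a log2 fold change of −0.57 ± 0.0447 (edgeR adjusted p = 9.88e-12). CXCL8 and IL6 were not called, at −0.26 and −0.06 (edgeR adjusted p = 0.0765 and 0.676). CXCL8 did pass with DESeq2 (adjusted p = 0.0238), with only the 12 compared libraries fitted by edgeR (0.0182) and with the trend removed (−0.40, edgeR adjusted p = 0.000198), and it stood at −1.01 with Samul-tang alone and −1.02 with Poria Cocos and Atractylodis Rhizoma alone. Of 43 interferon response genes 5 rose and 5 fell, 11.6% each way and under the 15% and 18% of all genes. STAT2 rose by 0.34 and IFI44 by 0.32, and IFITM3 fell by 0.24. Of 12 glucocorticoid receptor targets 6 fell and 2 rose (median −0.13), and FKBP5, the usual reporter of that receptor, stood at −0.14 (edgeR adjusted p = 0.101) and was called with the trend removed, at −0.24 (0.00362). Of 20 circadian clock genes 7 fell and 5 rose. NR1D1 and PER1 fell by 0.34 and 0.32, and PER3 rose by 0.28. Of 21 genes of IGF binding proteins and FOXO targets 10 fell and 4 rose (median −0.09). IGFBP3, the main circulating carrier of IGF, had 469, 503 and 517 CPM at 20 µg/mL, against 627, 635 and 620 CPM in vehicle, a log2 fold change of −0.34 ± 0.025 (edgeR adjusted p = 2.58e-12), and BCL6, a repressor that FOXO factors induce, rose by 0.26. Of 37 proteasome subunits 8 rose and 8 fell (21.6% each way), and of 29 lysosome genes 6 rose and 10 fell (20.7% and 34.5%). With the trend removed 5 proteasome subunits rose and 9 fell, and 3 lysosome genes rose and 5 fell. The lysosome median was 0.01 in both settings. Of 6 metallothioneins and zinc exporters 1 rose and 1 fell (16.7% each way, near the 15% and 18% of all genes). The same shares held for 6 glucose sensing arrestin genes, of which 1 rose, ARRDC3 by 0.32, and 1 fell. TXNIP of that last list, which slows glucose uptake, stood at −0.13 (edgeR adjusted p = 0.153), and at −0.19 with the trend removed (0.0387).

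The cells were checked against cell type markers. Of 18 astrocyte markers 11 had a mean of at least 1 CPM, but GFAP, the defining one, was too low to be tested. S100B, AQP4, SLC1A2, ALDH1L1 and SPARCL1 were also under 1 CPM in all 12 libraries, and FABP7 had no count. The astrocytic label is not borne out by these genes. SLC1A3 and GJA1 were expressed, at 22.8 to 27.2 and 241 to 258 CPM at 20 µg/mL. The whole astrocyte list summed to 7640 to 8320 CPM at 20 µg/mL and 8910 to 9190 CPM in vehicle. VIM and CD44 made up most of that sum, at 4390 to 4980 and 2660 to 2860 CPM at 20 µg/mL. Of the 12 tested 4 fell and 1 rose, among those that fell VIM by 0.21, SOX9 by 0.27 and CLU by 0.22, and with the trend removed 6 fell and none rose (median −0.13). All 12 fibroblast and pericyte markers were expressed, summing to 6050 to 6470 CPM at 20 µg/mL and 6660 to 6890 CPM in vehicle, and 3 rose and 3 fell (median 0.09, and 0.00 with the trend removed). Of 12 neuron markers 5 reached a mean of 1 CPM, and the list summed to 168 to 177 CPM at 20 µg/mL and 179 to 187 CPM in vehicle. Of 10 oligodendrocyte lineage markers 4 did, and the list summed to 303 to 319 CPM at 20 µg/mL and 326 to 336 CPM in vehicle, with OLIG1 and MOG at no count in the 12 libraries. Of 11 microglia and macrophage markers 3 did, and the list summed to 153 to 180 CPM at 20 µg/mL and 184 to 196 CPM in vehicle, with AIF1, TYROBP, C1QA and C1QB at no count. Of 10 endothelial markers 2 did, and the list summed to 36.5 to 39.1 CPM at 20 µg/mL and 31.6 to 36.3 CPM in vehicle. For none of these lists did the sums overlap, and they were higher at 20 µg/mL for endothelial markers and lower for the others. Each sum rests mostly on a few abundant members and does not show a list moving together. CD68 had 138 to 166 CPM at 20 µg/mL and 171 to 184 CPM in vehicle. PTPRC of the same list went the other way, with 10.6 to 12 CPM and 8.5 to 9.84 CPM. Among fibroblast and pericyte markers COL1A1 was lower and COL1A2 higher at 20 µg/mL. KDR made up most of the endothelial sum, at 32.6 to 35.9 CPM at 20 µg/mL. The part that these marker differences have in the shifts above was not tested.

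Few genes told the extracts apart at 20 µg/mL. Beside the 12 called, 680 genes had an unadjusted p under 0.05, where 892 would be 5% of those tested. CBS, which makes cystathionine from homocysteine, had 1.69 CPM in the Poria Cocos library, against 8.34 to 9.35 CPM in the other 8 treated libraries and 11.2, 9.54 and 9.61 CPM in vehicle (edgeR adjusted p among extracts = 1.82e-09). This difference rests on 1 library: without it the adjusted p was 1. CBS also shares 88.5% of its sequence with its copy CBSL, so its level is uncertain. The other 4 genes of smallest p set the formulas apart from the 3 other extracts. SOD2, the mitochondrial superoxide dismutase, had 145, 141 and 137 CPM with Palmul-tang and 138, 137 and 130 CPM with Sibjeondaebo-tang, then 112, 114 and 114 CPM with Samul-tang, Poria Cocos and Atractylodis Rhizoma, and 112, 113 and 111 CPM in vehicle (edgeR adjusted p among extracts = 0.00171). C3, a complement component, had 49.1 to 53.7 CPM with Palmul-tang and 51.2 to 58.4 CPM with Sibjeondaebo-tang, then 42.4, 43.9 and 40.6 CPM with the 3 others and 44.7 to 46.7 CPM in vehicle (edgeR adjusted p among extracts = 0.0001). In these genes every formula library lay above every vehicle library, while the other 3 lay within 1 CPM of the vehicle range for SOD2 and below it for C3. ICAM1, an adhesion receptor for leukocytes, had 70.4 to 77.9 CPM with Palmul-tang and 65.0 to 75.7 CPM with Sibjeondaebo-tang, then 51.1, 52.9 and 54.6 CPM with the 3 others and 67.2 to 70.3 CPM in vehicle (edgeR adjusted p among extracts = 2.5e-06). CXCL8, a neutrophil chemokine, had 10.5 to 12.9 CPM in the 6 libraries of both formulas, then 5.38, 6.25 and 4.55 CPM with the 3 others and 9.88 to 12.7 CPM in vehicle (edgeR adjusted p among extracts = 0.00596). Here the formula libraries overlapped vehicle, and the 3 others lay below it. NEAT1 and CCL2 also differed among extracts (edgeR adjusted p = 0.00956 and 0.00925), but in both all 9 treated libraries lay on the same side of vehicle. The 3 other extracts have 1 library each, and their sample codes differ from those of the formulas, so extract and sample set cannot be told apart.

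The same classes were followed to higher doses in both formulas, where 3 libraries exist at each dose. These values share the libraries at 20 µg/mL or vehicle with the comparison above and are given side by side. The mean of the contractile list median was −0.25, −0.24 and −0.26 at 20, 100 and 500 µg/mL of Palmul-tang and −0.29, −0.24 and −0.29 for Sibjeondaebo-tang, relative to vehicle, so it was about as low at each dose. For immediate early genes it was −0.18, −0.15 and −0.07 for Palmul-tang and −0.20, −0.15 and −0.04 for Sibjeondaebo-tang, the last of which was −0.08 without the third library. For nuclear retained RNAs it was 0.27, 0.20 and 0.07 for Palmul-tang and 0.30, 0.29 and 0.11 for Sibjeondaebo-tang, the last of which was 0.18 without the third library. In these means the immediate early and nuclear retained lists were farthest from vehicle at the lowest dose. Between 500 and 20 µg/mL, 2144 genes differed (12%), 1129 higher (6.33%) and 1015 lower (5.69%) at 500 µg/mL. Of 33 NF-kappa B and cytokine genes 32 rose at 500 over 20 µg/mL with a median of 1.11, while 15 immediate early genes rose and 1 fell, and 4 of 7 nuclear retained RNAs fell. Of the 20 contractile genes 6 fell and 2 rose, so members moved with dose although the list median was about level. LIF and PTGS2, which were lower than vehicle at 20 µg/mL, were higher at 500 than at 20 µg/mL by 1.34 and 0.91 on the log2 scale (edgeR adjusted p = 2.47e-21 and 1.09e-18). ACTA2 and CCN2 fell further at 500 over 20 µg/mL, by 0.43 and 0.31 on the log2 scale (edgeR adjusted p = 1.75e-14 and 0.00801). The base composition gradient, as the lowest minus the highest decile of GC content, was 0.177 to 0.319 in the 9 libraries at 20 µg/mL, 0.184 to 0.291 in the 9 at 100 µg/mL and −0.046 to 0.319 in the 9 at 500 µg/mL, against −0.014 to 0.006 in vehicle. The third Sibjeondaebo-tang library at 500 µg/mL was the only treated library without this gradient relative to the vehicle mean. That library still had a contractile median of −0.27, but its nuclear retained RNAs stood at −0.03 and its ZNF genes at −0.02. Without it the dose contrast called 2264 genes.

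**Figure D5:**
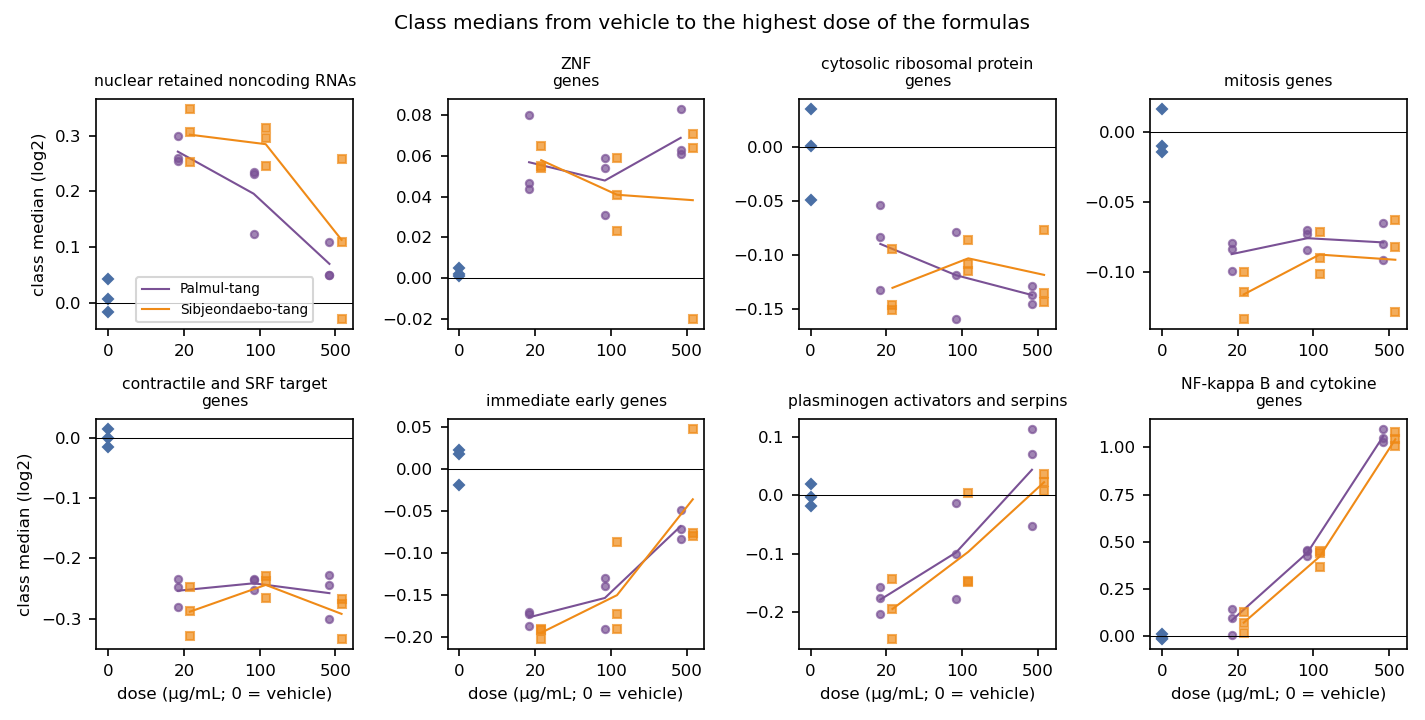
Median log2 difference from the vehicle mean of 8 gene classes in each library of both formulas at 20, 100 and 500 µg/mL, with the 3 vehicle libraries at 0. Contractile genes stay between about −0.24 and −0.29 on average at every dose, nuclear retained RNAs and immediate early genes come closer to 0 at 500 µg/mL, and the NF-kappa B and cytokine genes lie higher at 500 µg/mL.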

How the data were processed

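RNA from SW1783 cells, with an integrity number above 7 per the labels, was made into libraries with a directional MGI kit and sequenced as 100 bp paired reads. The authors' deposited table holds expected counts per gene from RSEM. The submitters' processing notes name FastQC 0.11.9, Trim Galore 0.6.5, STAR 2.7.3a, RSEM 1.3.3 and hg38; the annotation release and counting strand are not given in the sources used here. The table has 60675 genes and 279 columns, of which 30 match the series' samples by name and 249 were not used.

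Expected counts (24% of nonzero values not whole) were rounded. All 30 libraries in 16 groups were fitted with edgeR 4.0.16 in R 4.3.3 (TMM, filterByExpr, robust quasi-likelihood), with each group at 20 µg/mL weighted by its libraries. The 17839 genes tested had a median of 33.7 total degrees of freedom, which add those borrowed across genes to the residual ones. TMM factors were 0.998 to 1.017 at 20 µg/mL and 0.96 to 0.971 for vehicle. DESeq2 1.42.0 served as an alternative test. The GC and length trend was a loess fit (span 0.3) over 17708 genes with values from GENCODE release 29 on GRCh38, which gave a position to 57055 identifiers. Composition shares used exact permutation of libraries. Shared sequence was counted as words of 75 bases found in another gene. The fit was tested on simulated data.

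Members and gene lists were chosen with earlier results of these data known. Named genes average 1 log2 CPM or more over the 12 libraries and are the 15 largest fold changes each way among called genes without overlap, up to 3 called members of smallest p in each list, the 5 with the smallest p among extracts, and fixed markers; others are marked in the text, and some genes that the rule names are not reported here. Same-numbered replicates did not deviate together (r from −0.101 to 0.173), so no block was used. Alternatives were other normalizations, tests, filters, weights, thinning, trend removal, single sample-code sets and leaving out each library.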

Additional observations from a re-analysis of the deposited data

Results flagged for a closer look

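Among the 165 named genes and the composition measures, 11 values stood far from the other libraries of their group by Dixon's 95% criterion for 9 libraries, which chance alone meets in about 1 group in 20. The Samul-tang library gave 6 of them: RPL13A at 697 CPM, MRPS2 at 47.0 CPM, MRPL4 at 45.4 CPM and VIM at 4390 CPM were the lowest of the 9 libraries at 20 µg/mL, and the share of counts outside protein-coding genes (1.648%) and the histone share (0.005934%) were the highest. The first Palmul-tang library was highest for SMIM11 at 23.1 CPM, and lowest for COL4A5 at 131 CPM and AEN at 23.3 CPM. The second Sibjeondaebo-tang library was highest for TRIM8-DT at 4.54 CPM, and the Poria Cocos library was lowest for CBS at 1.69 CPM.

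A difference among the 5 extracts at 20 µg/mL passed the test, with edgeR adjusted p-values, for CBS (1.82e-09), ICAM1 (2.5e-06), C3 (0.0001), SOD2 (0.00171), CXCL8 (0.00596), CCL2 (0.00925) and NEAT1 (0.00956).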

How the results depend on the processing

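Called genes at 20 µg/mL against vehicle numbered 5902 with DESeq2 size factors, 5132 with DESeq2, 5619 with no filter on low counts, 5603 with libraries thinned to the lowest total and 6296 with the 12 compared libraries alone. Leaving out 1 library gave 4571 to 5881 (1956 to 2682 higher, 2552 to 3243 lower), 3287 to 3631 for Palmul-tang, 3333 to 3768 for Sibjeondaebo-tang, 6 to 13 among extracts (6 without the Samul-tang library) and 1752 to 2264 for dose. With the trend removed 1652 were higher. With the Samul-tang library as the only treated one 3457 were called (1470 higher, 1987 lower), and with the Poria Cocos and Atractylodis Rhizoma libraries alone 1747 were higher; fewer libraries enter there. Among extracts 20 genes were called by DESeq2, 73 with no filter and 20 with the compared libraries alone; the cause was not tested. A replicate block gave 6126 (2801 higher, 3325 lower), 4452, 4518, 15 and 2332 calls for low dose, Palmul-tang, Sibjeondaebo-tang, the difference among extracts and dose; replicate numbers did not pair the libraries.

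Composition differences, leaving out 1 library, were 202 to 388 genes (not called without any one vehicle library), 0.0533 to 0.0578 points for MALAT1 with NEAT1, −0.194 to −0.0967 for ribosomal protein genes (called without the first or the third Palmul-tang library), 0.109 to 0.12 for noncoding genes, −0.448 to −0.132 for mitochondrial genes, −0.000401 to −0.000184 for histones (called without Samul-tang, and at −0.000352 when thinned) and −1.08 to −0.808 for the top 100.

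Signs turned as follows, in log2 units. With Samul-tang alone MT-ND6 was 0.076, H4C14 0.31, C3 −0.11 and CYP1A1 0.33; with Poria Cocos and Atractylodis Rhizoma alone C3 was −0.12 and CYP1A1 0.073; with the formulas alone ICAM1 was 0.061, CXCL8 0.12 and IL6 0.07. CYP1A1 was 0.005 without the second vehicle library, 0.055 without the second and 0.092 without all Sibjeondaebo-tang libraries and 0.041 with extracts weighted equally, and IL6 was 0.018 thinned and 0.004 and 0.002 without Atractylodis Rhizoma. The medians of SR splicing factors (−0.019) and long noncoding RNAs (−0.008, and −0.017 among strongly expressed genes) turned with the trend removed or that filter, where the medians of all genes were −0.025 and −0.011. The mean at 500 µg/mL without the third Sibjeondaebo-tang library was added after seeing the data.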
